A study of Homo sapiens with 18 samples.

Results

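The 77 mitochondrial ribosomal protein genes measured here were the rows of the deposited tables whose name starts with MRPL or MRPS followed by a number, out of 19784 genes in all. Of these, 48 carry an MRPL name (for the large subunit) and 29 an MRPS name (for the small subunit). The names do not always match the place of the protein, as given below for MRPS18A, MRPS30 and MRPS36. They were read in 18 poly(A) RNA libraries of THP-1, an established line of human monocytic leukaemia that carries MLL-AF9 in every group. A derivative labelled PHF8, a derivative labelled F279S and wt THP-1 gave 4 libraries each (the first experiment). The second experiment comprised 2 libraries each of ERDD (genotype PHF8DD, 4-OHT), ERPHF8 (genotype PHF8, no treatment label) and ERAA (genotype PHF8AA, 4-OHT), all taken on day 3. The protocol gives 100 nM 4-OHT for the PHF8AA and PHF8DD forms, and the labels do not spell out AA, DD or ER. All cells were kept in DMEM with serum. The labels do not say whether a derivative is 1 clone or a pool, which promoter drives the PHF8 form, or whether libraries of a line came from separate cultures, so p-values measure only the spread between these libraries, which may be technical.

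Mitochondria keep their own ribosome to translate the few messages of the mitochondrial genome, all of which encode core subunits of the respiratory chain and ATP synthase. The ribosome's RNA comes from mitochondrial DNA, whereas every one of its proteins is encoded in the nucleus, made by cytosolic ribosomes and imported. Some of these proteins have counterparts in the bacterial ribosome and others were gained in mitochondria. PHF8 is a nuclear histone lysine demethylase, and the F279S change lies in its catalytic domain and is known to abolish that activity.

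The introduced gene was checked first, in CPM (reads scaled to a common library total). PHF8 averaged 2020.5 ± 89.6 CPM (SD, n = 4) in libraries labelled PHF8 and 5381.3 ± 320.2 CPM in those labelled F279S, against 50.6 ± 3.99 CPM in wt. In the second experiment they were 1098.0 and 1119.0 CPM in ERDD, 1900.0 and 1912.0 CPM in ERPHF8, and 2305.4 and 1995.5 CPM in ERAA. Reads over ESR1 lay between 124.5 and 274.9 CPM in the 6 ER-labelled libraries and at most 1.35 CPM in the other 12. Library totals ran from 18.2 to 51.5 M reads in the first experiment and from 40.6 to 41.3 M in the second. All 9 myeloid markers examined reached 1 CPM in every library. Of 15 markers of other cells, 9 stayed under 1 CPM in every library and none was at 0 in all of them, while 2 reached 1 CPM in every library, among them PECAM1, which monocytes also express.

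Every member was well measured. The lowest value of any member in any library was 10.4 CPM and the highest 218.5, no member had fewer than 236 reads in a library, and all 77 passed the filter on low values in both experiments. Genes were tested with limma on log2(CPM + 0.5), and a gene was called at an adjusted p (Benjamini-Hochberg over all genes tested) below 0.05. A log2 change is on that scale, which understates changes of low genes. The deposited values are scaled to the whole gene span, introns included, and the use of strand is not given in the sources used here, so the 36 members whose span overlaps another gene may share reads with it, while 41 overlap none. Summed over all genes, reads came to between 100.1% (F279S library 3) and 104.6% (ERDD library 2) of the library total. That is more than reads of that total counted once could give. Whether members are among the genes concerned was not tested.

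The stretches upstream of 4 members are shown because these genes carry results below: MRPL52 in the difference between library pairs, MRPL3 in the way that difference varied between lines, and MRPL28 and MRPL17 as members that overlap no other gene and were called lower in the PHF8 line than in both other lines. The sequences are RefSeq's (GRCh38.p14), 5′ to 3′ on the gene's own strand, cut to the longest run without an exon of the GENCODE v29 basic annotation within the 250 bases before the gene's start. They lie at chr14:22829637-22829882 (plus strand), chr3:131502984-131503221, chr11:6683402-6683590 and chr16:370539-370772 (minus strand). Capitals mark exact matches on either strand to AAGATGGC (the core of the YY1 motif), CCGGAAGT (ETS factors, among them GABPA), or the NRF1 motif, whose letters are the capitals in the MRPL17 stretch.
MRPL52: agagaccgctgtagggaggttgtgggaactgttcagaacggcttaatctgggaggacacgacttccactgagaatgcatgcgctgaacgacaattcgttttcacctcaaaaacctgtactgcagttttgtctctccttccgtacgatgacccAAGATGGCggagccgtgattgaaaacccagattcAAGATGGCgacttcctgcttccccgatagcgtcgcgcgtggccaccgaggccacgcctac
MRPL3: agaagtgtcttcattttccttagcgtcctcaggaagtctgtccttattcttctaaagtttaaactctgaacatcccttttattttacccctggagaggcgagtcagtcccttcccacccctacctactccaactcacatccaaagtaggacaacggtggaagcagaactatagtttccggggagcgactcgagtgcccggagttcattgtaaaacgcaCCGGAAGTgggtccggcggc
MRPL17: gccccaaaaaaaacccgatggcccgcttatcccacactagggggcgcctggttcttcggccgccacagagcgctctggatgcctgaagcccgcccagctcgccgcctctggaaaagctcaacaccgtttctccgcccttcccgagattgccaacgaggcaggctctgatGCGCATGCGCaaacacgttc
MRPL28: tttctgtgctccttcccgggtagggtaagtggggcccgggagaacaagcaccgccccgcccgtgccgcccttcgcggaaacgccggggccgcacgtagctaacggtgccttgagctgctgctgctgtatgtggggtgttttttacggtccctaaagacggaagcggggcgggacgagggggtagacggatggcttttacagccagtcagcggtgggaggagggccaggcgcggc
MRPL52 held 2 YY1 cores, MRPL3 held 1 ETS site and MRPL17 held 1 NRF1 site. In the MRPL28 stretch none of these letters was found, nor was the E-box CACGTG, which says only that they are not in that window. RefSeq promoters were matched for 68 of the 77 members by symbol. Over the 250 bases before the start, CCGGAAGT was found in 10 of the 68 (14.7%), against 4.13% of all 27305 genes with an entry. AAGATGGC was found in 5 (7.35%, against 1.64%), CACGTG in 8 (11.8%, against 7.73%) and the NRF1 motif in 1 (1.47%, against 1.28%), while 46 of the 68 held none of these motifs. None of the 4 motifs contains another, and where a gene had several RefSeq entries a match in any of them counted.

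Levels differed widely between members. Among the 53 members with under 10% of their span overlapped, CPM per kilobase of annotated exon, averaged over the 18 libraries, were highest for MRPL18 at 108.3, MRPS34 at 86.3, MRPL3 at 83.8, MRPL15 at 59.1 and MRPS30 at 54.5. They were lowest for MRPL23 at 7.88, MRPS11 at 7.85, MRPL50 at 7.51, MRPS33 at 4.75 and MRPL42 at 3.48. MRPL42 has 16006 bases of annotated exon, so its value per kilobase depends on which of its transcripts the cells use.

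The largest shared movement of these genes in the first experiment followed the replicate number and not the line. Members were higher in libraries 1 and 2 than in libraries 3 and 4 of the same line. Summed over the 77 genes, the level was 4289.1 and 4363.2 CPM in PHF8 libraries 1 and 2, against 3895.0 and 3964.9 CPM in PHF8 libraries 3 and 4. It was 4591.7 and 4947.6 CPM in F279S libraries 1 and 2, against 3690.5 and 3864.2 CPM in F279S libraries 3 and 4. It was 4790.9 and 4841.5 CPM in wt libraries 1 and 2, against 3503.0 and 3750.1 CPM in wt libraries 3 and 4. The pairs did not overlap in any line, and the gap was widest in wt and narrowest in the PHF8 line.

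**Figure D1:**
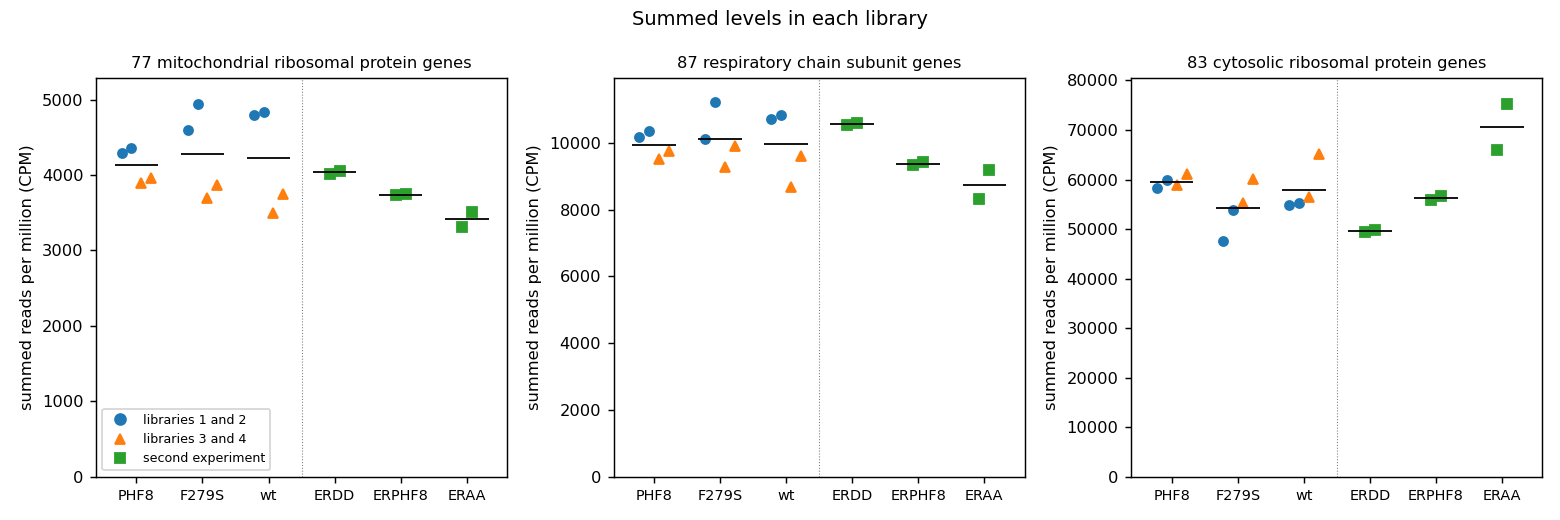
Summed CPM of the 77 mitochondrial ribosomal protein genes, 87 nuclear respiratory chain subunit genes and 83 cytosolic ribosomal protein genes in each of the 18 libraries, by line; points are libraries (in the first experiment circles mark libraries 1 and 2 and triangles libraries 3 and 4), and black lines are means. In the left panel every circle, from 4289.1 to 4947.6 CPM, lies above every triangle, from 3503.0 to 3964.9 CPM, and the squares fall in steps over ERDD, ERPHF8 and ERAA.

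Within lines, 64 of the 77 members were called higher in libraries 1 and 2, where 29% of all genes tested were, and 0 were called lower, where 33.9% of all genes were. At an unadjusted p below 0.05 limma also held 64 members, all of them higher, and limma-voom on the recovered reads called the same number. The median log2 change of the members was 0.32, against -0.03 over all genes. In 35 members every library 1 and 2 lay above every library 3 and 4 whatever the line, a pattern shown by 12.6% of all genes, and the reverse was shown by 0 members and 9.14% of all genes. MRPL52, a large subunit protein gained in mitochondria, led the members by size. Its level was 55.7 and 60.6 CPM in PHF8 libraries 1 and 2, 75.3 and 83.6 CPM in F279S libraries 1 and 2 and 76.6 and 75.2 CPM in wt libraries 1 and 2. In libraries 3 and 4 it was 40.0 and 38.2 CPM in PHF8, 41.7 and 43.9 CPM in F279S and 38.3 and 40.1 CPM in wt. Each library of the first pair thus exceeded each of the second, and the log2 change was 0.80 ± 0.06 (SE, limma adjusted p = 8.7e-07).

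The next by size came from both subunits. MRPS26, MRPS35 and MRPL38, which have no bacterial counterpart, changed by 0.69 ± 0.08, 0.66 ± 0.08 and 0.58 ± 0.06 on the log2 scale (limma adjusted p of 1.1e-05, 1.5e-05 and 4.8e-06). MRPL4 and MRPS9, which have one, changed by 0.58 ± 0.07 and 0.58 ± 0.05 (2.1e-05 and 3e-06). MRPL38 lies wholly within the span of RP11-552F3.12 and may share its reads. By structural class, 21 of 28 large subunit proteins with a bacterial counterpart were called higher, as were 20 of 21 gained in mitochondria, 13 of 15 small subunit proteins with a counterpart and 9 of 11 without. MRPS18A and MRPS30 are counted with the large subunit, where they are found, and MRPL55 and MRPS36 in no class. The 13 members that were not called were MRPL14, MRPL17, MRPL23, MRPL28, MRPL30, MRPL33, MRPL34, MRPL53, MRPS5, MRPS6, MRPS25, MRPS31 and MRPS36. Their log2 changes ran from -0.13 for MRPL33 to 0.12 for MRPL14.

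What the number pairs stand for is not given in the labels, and other measures moved with them. Depth was 18.2 to 24.3 M reads in libraries 1 and 2, against 20.8 to 51.5 M in libraries 3 and 4. Libraries 3 and 4 of wt had 42.3 and 20.8 M reads, and the members summed to 3503.0 and 3750.1 CPM in them. Of the 9 myeloid markers, 2 were called higher in libraries 1 and 2 and 5 lower. Their summed level ran from 1534.1 to 2195.3 CPM in libraries 1 and 2, against 2012.2 to 2754.5 CPM in libraries 3 and 4. For the 15 markers of other cells the sums ran from 252.0 to 414.2 CPM in libraries 1 and 2, against 326.3 to 422.8 CPM in libraries 3 and 4. The part of these in the result was not tested, and in bulk libraries fewer cells of a kind and less RNA per cell cannot be told apart.

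**Figure D2:**
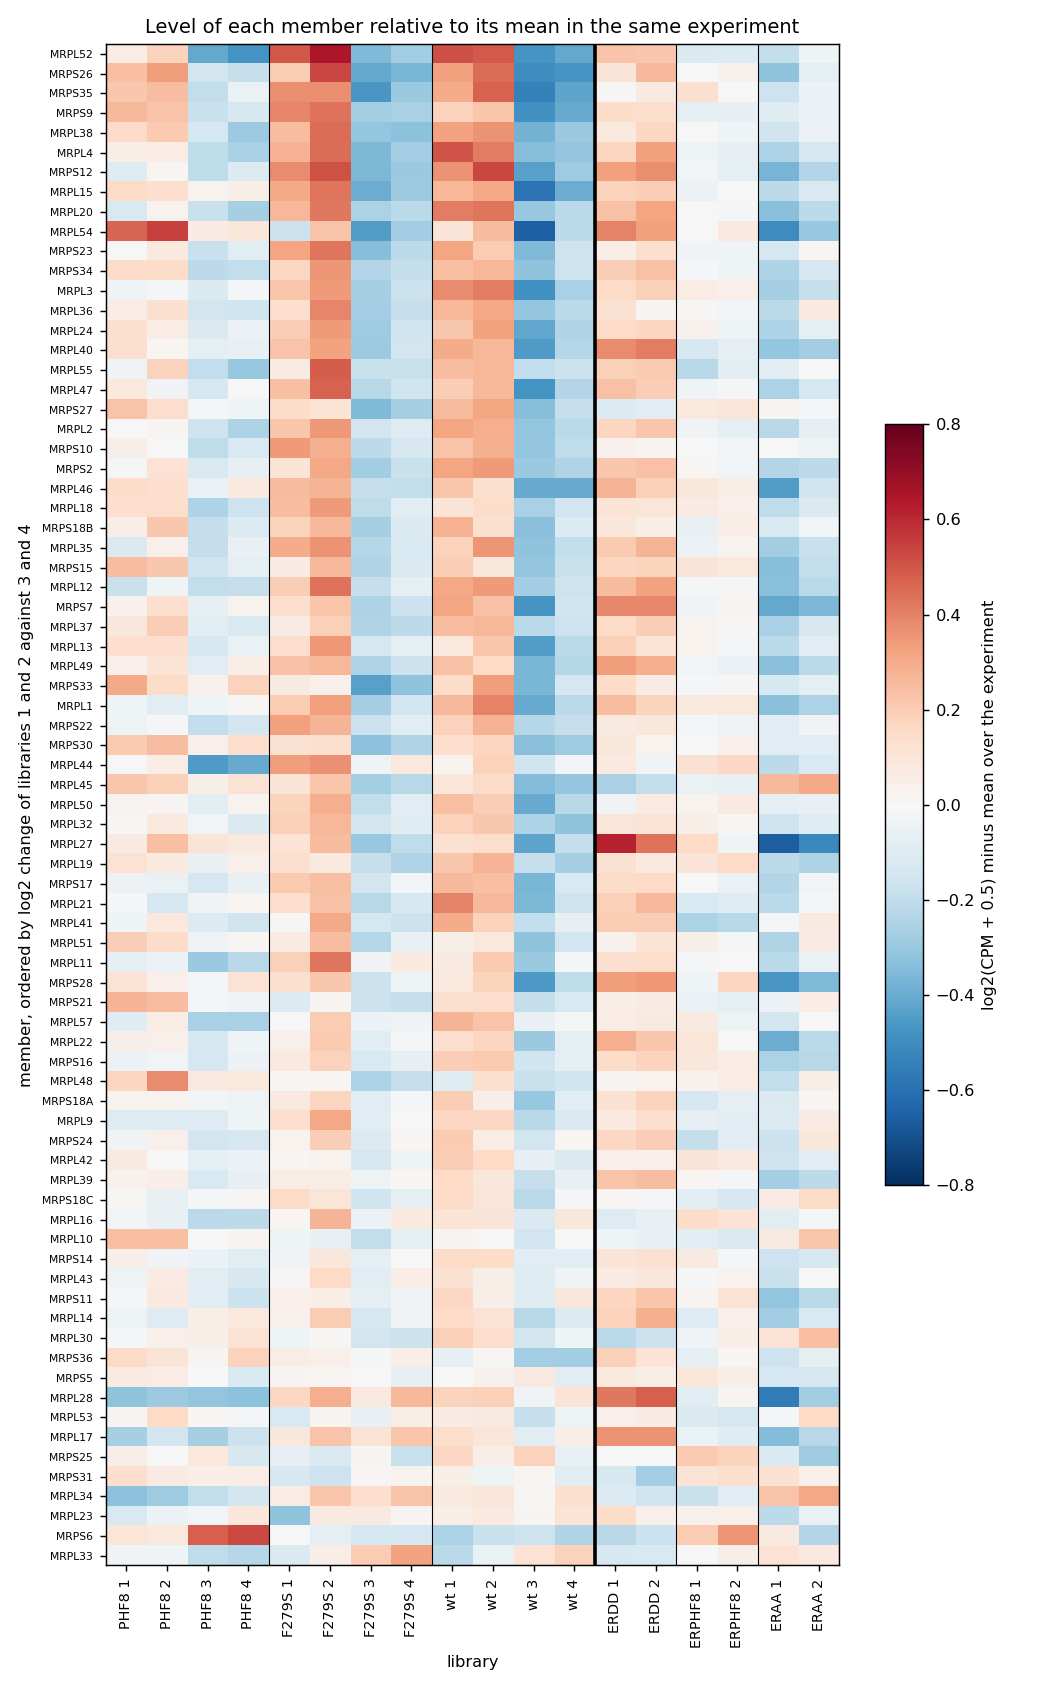
Level of each of the 77 members (rows, ordered by the log2 change of libraries 1 and 2 against 3 and 4) in each library (columns) as log2(CPM + 0.5) minus the member's mean over the same experiment; red is above the mean and blue below. Libraries 1 and 2 of F279S and wt are red and libraries 3 and 4 blue for most rows, PHF8 is paler, and MRPL28, MRPL34 and MRPL17 are blue in all 4 PHF8 libraries.

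The gap between the pairs was smaller over the members as a whole in the PHF8 line. There, 21 members were called higher in libraries 1 and 2 (13% of all genes were) and 1 lower (14.1%), with a median log2 change of 0.13. The counts were 53 higher (27% of all genes) and 1 lower (30.7%) in F279S, with a median of 0.35, and 62 higher (28.1%) and 1 lower (32.3%) in wt, with a median of 0.44. The member called lower was MRPS6 in the PHF8 line and MRPL33 in F279S and wt. The difference of these log2 changes between lines was tested as an interaction. The change was lower in PHF8 than in wt for 38 members, where 16.1% of all genes were called lower, and higher for 1, where 14.4% were called higher; the median over members was -0.28, against 0.02 over all genes. Against F279S it was lower in PHF8 for 23 members (11.8% of all genes) and higher for 1 (10.1%), with a median of -0.22. A lower change was not always a smaller gap: the log2 change of MRPS6 was -0.41 ± 0.05 in PHF8, against 0.10 ± 0.05 in F279S and -0.01 ± 0.05 in wt, so its gap was the wider one in PHF8 and of opposite sign to that in F279S. Fewer members than these 24, and fewer of all genes, were called against F279S without PHF8 library 1, 2 or 4 or F279S library 2 or 3. Each such fit leaves 1 library in a line and pair. The median over members was then -0.21, -0.22 and -0.19 without the PHF8 libraries. It was -0.13 and -0.18 without the F279S libraries. Between F279S and wt limma called 0 members either way, where 0.519% of all genes were called higher and 0.38% lower; 1 member, MRPL3, had an unadjusted p below 0.05, and limma-voom called 0.

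MRPL3, whose bacterial counterpart is an early assembling protein near the peptidyl transferase centre, led this list. It was at 151.4, 154.4, 143.5 and 153.8 CPM in PHF8 libraries 1 to 4, at 181.6, 196.4, 129.1 and 138.0 CPM in F279S and at 202.4, 206.6, 110.9 and 129.5 CPM in wt. The 4 PHF8 values lay together, between the high and low pairs of the other lines. The gap between the pairs was smaller in PHF8 than in wt by a log2 difference of -0.73 ± 0.10 (limma adjusted p = 0.00038). MRPL15 and MRPL1, both with bacterial counterparts in the large subunit, had differences of -0.68 ± 0.10 (limma adjusted p = 0.0005) and -0.69 ± 0.11 (0.001). MRPL1 was at 36.0, 34.6, 36.0 and 37.0 CPM in the PHF8 line, against 44.2, 48.6, 27.7 and 31.7 CPM in wt. Its PHF8 values lay between both pairs of wt without overlap. MRPS12, the small subunit protein at the decoding site, had a difference of -0.70 ± 0.11 (limma adjusted p = 0.00091), MRPL21 of -0.66 ± 0.11 (0.0014) and MRPL4 of -0.50 ± 0.09 (0.0017). MRPS12 lies wholly within the spans of SARS2 and CTC-360G5.8. MRPL33 went the other way, by 0.46 ± 0.10 against wt (limma adjusted p = 0.005) and 0.47 ± 0.10 against F279S (0.0071), and 95.5% of its span is covered by RBKS and BRE.

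Within pairs, the median member was lower in PHF8 than in wt in libraries 1 and 2 and higher in libraries 3 and 4. Both pairs were read from a single fit of all libraries of the first experiment. In libraries 1 and 2, 24 members were called lower in PHF8 than in wt (21.2% of all genes were) and 3 higher (24.5%), with a median log2 change of -0.14. In libraries 3 and 4, 31 were called higher (26.5%) and 6 lower (22%), with a median of 0.12. These were mostly different members. Only MRPL1, MRPL3, MRPL14, MRPL19, MRPL21 and MRPS12 were called lower in the first pair and higher in the second. The share of all genes that did so was not counted. MRPL3 was lower in PHF8 libraries 1 and 2 by a log2 change of -0.42 ± 0.07 (limma adjusted p = 0.00043) and higher in libraries 3 and 4 by 0.31 ± 0.07 (0.0033). MRPS12 was lower by -0.49 ± 0.08 in libraries 1 and 2 (limma adjusted p = 0.00029) and higher by 0.20 ± 0.08 in libraries 3 and 4 (0.05 as rounded, called). MRPL1 was lower by -0.39 ± 0.08 in libraries 1 and 2 and higher by 0.30 ± 0.08 in libraries 3 and 4. These members were picked by the interaction test in the same libraries, so their change of direction is no separate result. Of others picked that way, MRPL21 was called in both directions (-0.40 ± 0.08 and 0.26 ± 0.08). MRPL15 was not called in libraries 1 and 2 (-0.14 ± 0.07, limma adjusted p = 0.11), nor MRPL4 in libraries 3 and 4 (0.10 ± 0.06, 0.22).

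**Figure D3:**
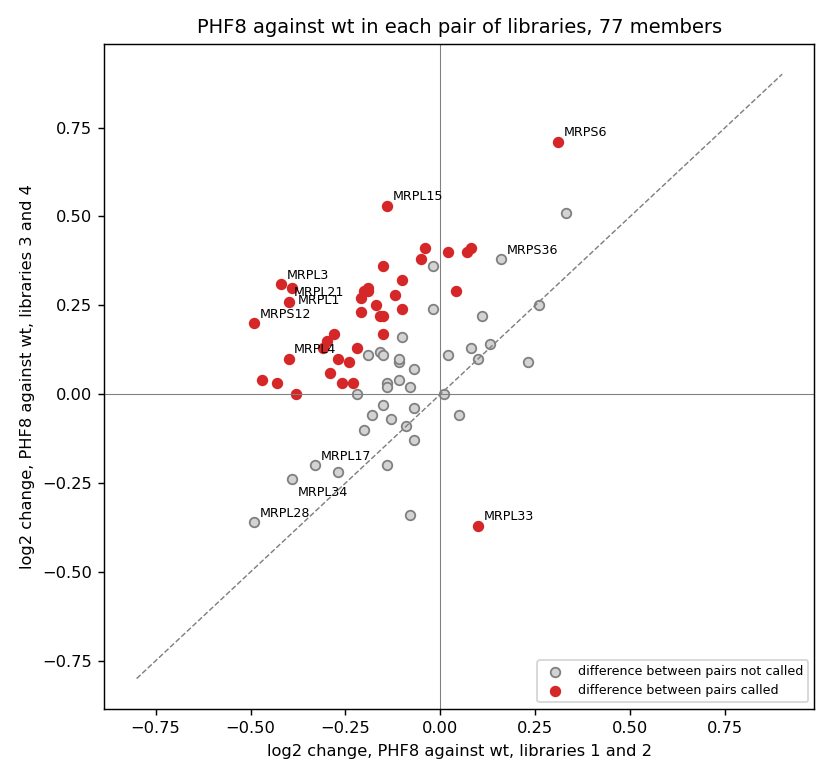
Log2 change of each of the 77 members, PHF8 against wt, in libraries 1 and 2 (x axis) and in libraries 3 and 4 (y axis); red points are the 39 members whose change was called as differing between the pairs, the dashed line marks equal changes, and 12 members are named. Most red points lie left of and above 0, and MRPL28, MRPL34 and MRPL17 are below 0 on both axes.

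Over all 4 libraries a line, PHF8 against wt gave few calls. The 5 members called had the same direction in both pairs, though not the same size for MRPS6 (log2 change of 0.31 in libraries 1 and 2 and 0.71 in libraries 3 and 4) or MRPS36 (0.16, not called, and 0.38). There were 2 members called higher (12.7% of all genes) and 3 called lower (8.28%), with a median log2 change of -0.02, against 0.01 over all genes. With the replicate number as a block, which takes out the difference between pairs, 8 were called higher and 7 lower, while the calls over all 13683 genes came to 5670 in place of 2874. With each pair averaged first, 1 member was called, which was MRPL28. MRPL28, a large subunit protein with a bacterial counterpart at chr16:367384-370527 (minus strand), overlaps no other gene. It was at 47.9, 48.9, 48.2 and 47.8 CPM in the PHF8 line, at 67.4, 73.6, 63.5 and 72.0 CPM in F279S and at 68.0, 68.7, 58.9 and 64.9 CPM in wt. The PHF8 libraries lay close together (mean 48.2 ± 0.498 CPM, SD, n = 4) and below every library of the other lines. The log2 change was -0.43 ± 0.07 against wt (limma adjusted p = 0.00075) and -0.51 ± 0.07 against F279S (0.00023).

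MRPL17, also in the large subunit with a bacterial counterpart (chr11:6680782-6683401, minus strand), overlaps no other gene. It was at 53.5, 58.1, 53.5 and 57.3 CPM in the PHF8 line, at 68.8, 75.6, 69.5 and 75.2 CPM in F279S and at 71.2, 68.9, 60.8 and 67.0 CPM in wt. Again the PHF8 values did not overlap those of either other line. The log2 change was -0.27 ± 0.06 against wt (limma adjusted p = 0.012) and -0.37 ± 0.06 against F279S (0.0017). The call against wt was lost in a separate fit of libraries 3 and 4 alone. Read from the fit of all libraries, the change in libraries 3 and 4 was called (-0.20 ± 0.07, limma adjusted p = 0.033). MRPL34 was at 55.9, 57.6, 61.2 and 63.4 CPM in the PHF8 line, at 73.4, 81.9, 77.1 and 82.4 CPM in F279S and at 74.3, 75.2, 70.8 and 76.9 CPM in wt. These groups did not overlap either, with log2 changes of -0.32 ± 0.06 against wt (limma adjusted p = 0.0032) and -0.40 ± 0.06 against F279S (0.00078). ABHD8 covers the whole of MRPL34 and may share its reads. Reads over ABHD8 less those over MRPL34 came to 8.06 and 8.47 CPM in PHF8 libraries 1 and 2, against 11.4 and 9.94 CPM in wt libraries 1 and 2, and to 11.6 and 12 CPM in PHF8 libraries 3 and 4, against 14.3 and 14.7 CPM in wt libraries 3 and 4. They were lower in PHF8 without overlap within each pair, and the groups overlapped over all 4 libraries (ratio of means 0.796, exact permutation test, two-sided, p = 0.171).

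**Figure D4:**
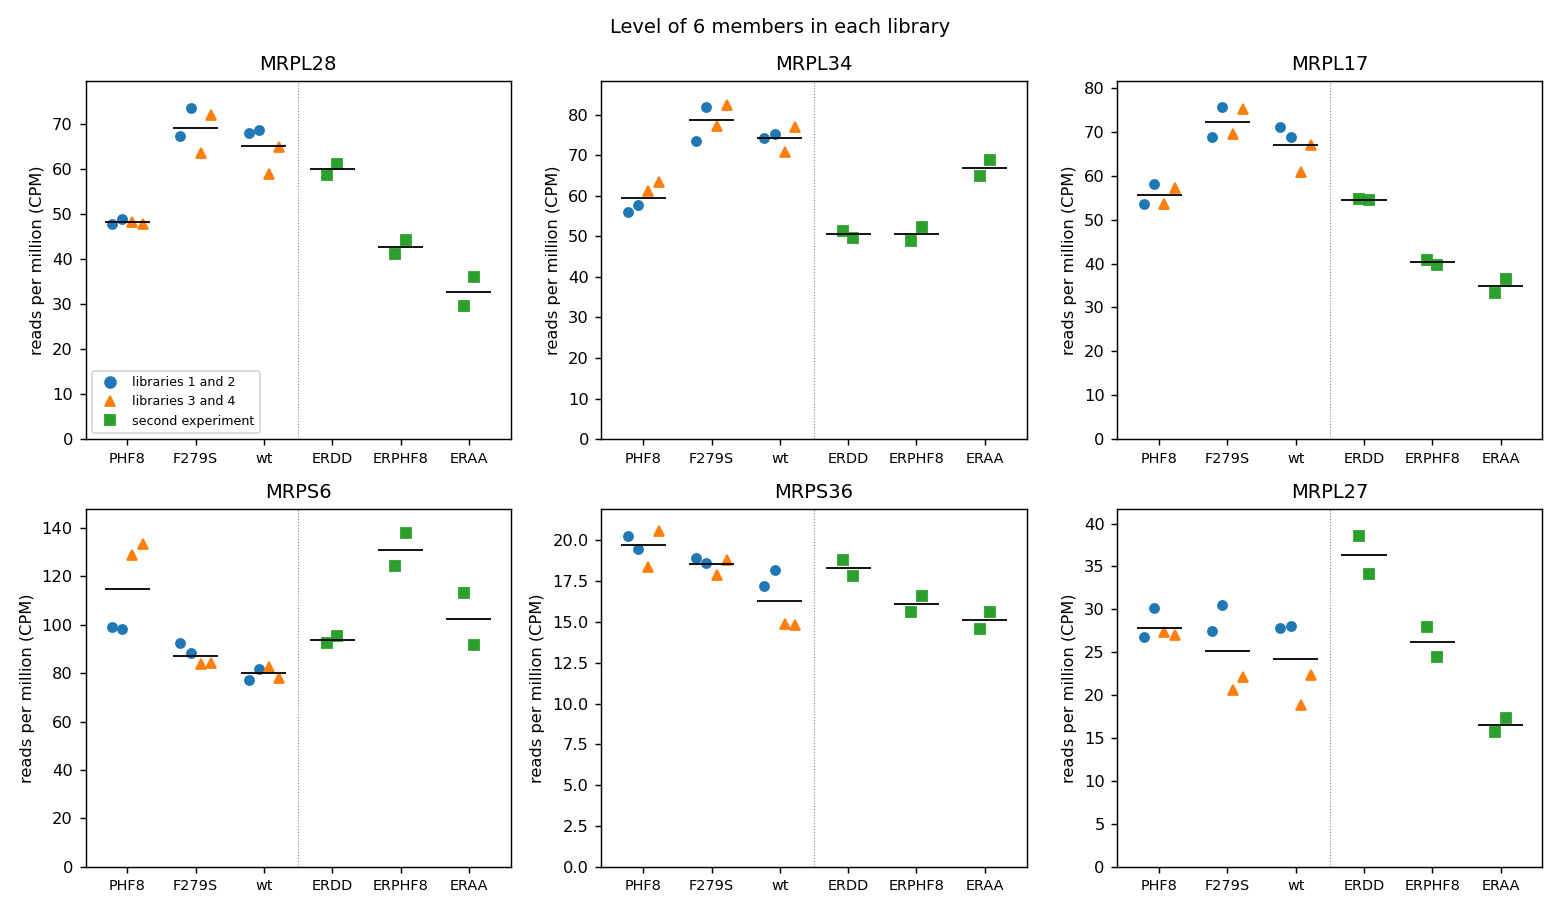
CPM of MRPL28, MRPL34, MRPL17, MRPS6, MRPS36 and MRPL27 in each of the 18 libraries, by line, with means as black lines and axes from 0. The 4 PHF8 points of MRPL28 lie between 47.8 and 48.9 CPM, under every F279S and wt point, and MRPL27 is spread furthest between ERDD and ERAA.

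MRPS6 and MRPS36 were the members called higher. MRPS6 was at 98.9, 98.2, 129.0 and 133.5 CPM in the PHF8 line, against 77.4, 81.7, 82.4 and 78.1 CPM in wt, a log2 change of 0.51 ± 0.10 (limma adjusted p = 0.0033). It also rose against F279S, by 0.38 ± 0.10 (limma adjusted p = 0.018), a call that was lost without PHF8 library 3 and in libraries 1 and 2 alone. SLC5A3, which encodes a sodium and myo-inositol transporter, lies wholly inside MRPS6 and covers 46.8% of it. Reads over SLC5A3 were 53.8, 53.7, 78.6 and 80.6 CPM in the PHF8 line, against 38.2, 37.9, 46.0 and 41.3 CPM in wt. If these are counted in both genes, taking them away left 45.1, 44.4, 50.4 and 52.8 CPM for the rest of MRPS6 in the PHF8 line, against 39.2, 43.8, 36.4 and 36.8 CPM in wt. These still did not overlap, at a ratio of means of 1.23, against 1.44 for the whole span (exact permutation test, two-sided, 4 libraries against 4, p = 0.0286, the smallest it can give). Against F279S the ratio was 1.04 outside SLC5A3 and the groups overlapped (p = 0.657, same exact test, which does not use the library pairs). That ratio averaged opposite differences. In libraries 1 and 2 PHF8 was lower than F279S, whose values were 53.5 and 51.0 CPM. In libraries 3 and 4 it was higher than F279S, at 39.3 and 41.7 CPM, without overlap in either pair. The reads over SLC5A3 were 1.63 times those in F279S (p = 0.0286, same exact test).

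MRPS36 is named as a small subunit protein but is known as a subunit (KGD4) of the alpha-ketoglutarate dehydrogenase complex. It was at 20.3, 19.5, 18.4 and 20.6 CPM in the PHF8 line, against 17.2, 18.2, 14.9 and 14.8 CPM in wt, without overlap. Its log2 change was 0.27 ± 0.08 (limma adjusted p = 0.032). The call was lost in 5 of 12 fits that left out a library (without PHF8 library 1, 2 or 4 or wt library 3 or 4), with median-ratio scaling and in libraries 1 and 2 alone.

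Against F279S, 1 member was called higher in PHF8 (12.2% of all genes), namely MRPS6, and 3 lower (7.92%), namely MRPL28, MRPL34 and MRPL17. The median was -0.04, against 0.02 over all genes, and with the replicate block 7 were called higher and 10 lower, while the calls over all genes came to 5620 in place of 2750. With each pair averaged first, 1 was called higher and 4 lower, of which 3 were among the 4 named above; MRPS6 was lost. In libraries 1 and 2, 29 were called lower (22.1%) and 5 higher (26.3%), and in libraries 3 and 4, 15 were called higher (23%) and 8 lower (17.9%). PHF8 against wt and PHF8 against F279S share the PHF8 libraries. F279S against wt gave 0 calls among members, where limma called 0.0146% of all genes higher and 0% lower. At an unadjusted p below 0.05 there were 2 members (MRPS25 and MRPS36), and limma-voom on the recovered reads also called 0. The smallest p-values were those of MRPS25, MRPS36, MRPL17 and MRPL30, with log2 changes of -0.17 ± 0.07, 0.19 ± 0.08, 0.11 ± 0.06 and -0.12 ± 0.08 (limma adjusted p of 0.73, 0.74, 0.89 and 0.91). With the replicate block 1 member was called, MRPS25, which was lower, while 298 of all 13683 genes were called. By contrast 0 members were called with the library pair as a factor or with each pair averaged. A separate fit of libraries 1 and 2 alone gave 4 members higher and 2 lower, where 1943 of all 13683 genes were called.

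In the second experiment the members were stepped by line, highest in ERDD and lowest in ERAA. Their sum was 4020.3 and 4058.8 CPM in ERDD, 3735.2 and 3748.5 CPM in ERPHF8 and 3317.9 and 3504.6 CPM in ERAA. The lines did not overlap. Against ERAA, 54 members were called higher in ERDD (34.8% of all genes) and 7 lower (33.3%), with a median log2 change of 0.26, against -0.00 over all genes. In ERPHF8, 35 were called higher than in ERAA (29.7%) and 7 lower (24.1%), with a median of 0.16, against 0.04. Against ERPHF8, 32 were called higher in ERDD (24.8%) and 8 lower (28%), with a median of 0.14, against -0.02. These 3 comparisons share their libraries by pairs. In 38 members the libraries stepped down without overlap over ERDD, ERPHF8 and ERAA, which 18.9% of all genes did, and 3 members (MRPL30, MRPL33 and MRPL45) stepped up, as did 16.3% of all genes.

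In both comparisons that involve ERPHF8, fewer members and fewer of all genes were called without an ERDD or ERPHF8 library. More of both were called without an ERAA library. Such fits leave a line with 1 library, so the members' median log2 change is given for them. In ERPHF8 against ERAA it was 0.14 and 0.16 without ERPHF8 library 1 or 2. Without ERAA library 1 or 2 it was 0.1 and 0.21, where all genes gave 0.06 and 0.01. In ERDD against ERPHF8 it ran from 0.13 to 0.14, and in ERDD against ERAA from 0.2 to 0.31. ERPHF8 differs from the other lines in carrying no 4-OHT label. The lines also differ in their reads over PHF8 and ESR1, which were lowest in ERDD and highest on average in ERAA. The form of PHF8 and its level cannot be told apart in any of these comparisons. ERDD and ERAA carry the same 4-OHT label, so treatment is confounded with the line only where ERPHF8 enters. The 9 myeloid markers summed to 1949.9 and 1990.0 CPM in ERDD, 1593.3 and 1584.4 CPM in ERPHF8 and 1957.6 and 2029.4 CPM in ERAA, and the 15 markers of other cells to 629.0 and 636.1 CPM in ERDD, 424.1 and 425.9 CPM in ERPHF8 and 404.8 and 400.8 CPM in ERAA. PECAM1 made up most of the last sums, and its part in the result was not tested.

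MRPL27, whose bacterial counterpart reaches into the peptidyl transferase centre, led the rise. It was at 38.6 and 34.1 CPM in ERDD, 28 and 24.4 CPM in ERPHF8 and 15.7 and 17.4 CPM in ERAA, without overlap between lines. Its log2 change was 1.11 ± 0.09 in ERDD against ERAA (limma adjusted p = 1.9e-05), 0.65 ± 0.09 in ERPHF8 against ERAA (0.0007) and 0.47 ± 0.09 in ERDD against ERPHF8 (0.0037). MRPL28, the member that was low throughout the PHF8 line, was at 58.8 and 61.1 CPM in ERDD, 41.2 and 44.3 CPM in ERPHF8 and 29.5 and 36.0 CPM in ERAA. It too stepped down without overlap, with log2 changes of 0.87 ± 0.09 (ERDD against ERAA, limma adjusted p = 6.3e-05), 0.39 ± 0.09 (ERPHF8 against ERAA, 0.0074) and 0.48 ± 0.09 (ERDD against ERPHF8, 0.0029). The middle call was lost without ERPHF8 library 2. MRPL17 followed, at 54.7 and 54.5 CPM in ERDD, 40.9 and 39.6 CPM in ERPHF8 and 33.3 and 36.4 CPM in ERAA, and rose by 0.43 ± 0.06 in ERDD against ERPHF8 (limma adjusted p = 0.00059).

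Small subunit members rose as well. MRPS7, a protein of the small subunit's head with a bacterial counterpart, was at 68.6 and 68.6 CPM in ERDD, 51.4 and 53.3 CPM in ERPHF8 and 39.4 and 40.8 CPM in ERAA. Its log2 change was 0.77 ± 0.05 in ERDD against ERAA (limma adjusted p = 4.3e-06), and 17.8% of its span is overlapped by GGA3 and MIF4GD. MRPS28 rose by 0.75 ± 0.08 in ERDD against ERAA (limma adjusted p = 7e-05), and RP11-26J3.4 covers 99.9% of its span. Of members gained in mitochondria, MRPL54 was at 24.8 and 23.6 CPM in ERDD, 18.8 and 19.8 CPM in ERPHF8 and 13.1 and 15.1 CPM in ERAA, and rose by 0.76 ± 0.08 in ERDD against ERAA (limma adjusted p = 6.8e-05). MRPL40 was at 30.8 and 31.5 CPM in ERDD, 21.5 and 22.4 CPM in ERPHF8 and 18.9 and 19.3 CPM in ERAA, rose by 0.69 ± 0.06 in ERDD against ERAA (1.8e-05) and lies wholly within the spans of HIRA and C22orf39. Between ERDD and ERPHF8, MRPL40, MRPL41 and MRPS12 rose by 0.49 ± 0.06, 0.44 ± 0.05 and 0.40 ± 0.06 (limma adjusted p of 0.00033, 0.00031 and 0.0013). Between ERPHF8 and ERAA, MRPS25 rose by 0.40 ± 0.06 (limma adjusted p = 0.00074), and it fell in ERDD against ERPHF8 by a log2 change of -0.19 ± 0.06 (0.022). NR2C2 overlaps 48.7% of the span of MRPS25.

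A few members moved against the rest. MRPL45, which ties the ribosome to the inner membrane, overlaps no other gene and was at 44.3 and 46.4 CPM in ERDD, 51.1 and 51.0 CPM in ERPHF8 and 63.8 and 65.8 CPM in ERAA. It was lower in ERDD by a log2 change of -0.51 ± 0.05 (limma adjusted p = 3.7e-05) and in ERPHF8 by -0.34 ± 0.05 (0.00067) than in ERAA, without overlap between lines. MRPL34 was at 51.4 and 49.6 CPM in ERDD and 48.9 and 52.2 CPM in ERPHF8, against 64.9 and 68.7 CPM in ERAA, so ERDD and ERPHF8 overlapped each other and both lay below ERAA. MRPL10, which anchors the stalk that recruits translation factors, was at 41.9 and 41.1 CPM in ERDD and 40.4 and 39.5 CPM in ERPHF8, against 45.2 and 50.1 CPM in ERAA. Its log2 change was -0.20 ± 0.06 in ERDD (limma adjusted p = 0.018, lost without either ERDD library) and -0.25 ± 0.06 in ERPHF8 (0.0081, lost without ERPHF8 library 2). MRPL30 (-0.37 ± 0.06, limma adjusted p = 0.00074), MRPS31 (-0.28 ± 0.07, 0.0073, lost without ERDD library 2) and MRPL33 (-0.22 ± 0.04, 0.0024) were also lower in ERDD than in ERAA. Of these, MRPL30 is wholly and MRPL33 mostly overlapped by other genes.

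MRPS6 was at 92.4 and 95.4 CPM in ERDD, 124.2 and 137.9 CPM in ERPHF8 and 113.1 and 91.7 CPM in ERAA, and was called lower in ERDD than in ERPHF8 by a log2 change of -0.48 ± 0.09 (limma adjusted p = 0.0038). Outside SLC5A3 its reads were 33.5 and 36.5 CPM in ERDD, 37.3 and 35.2 CPM in ERPHF8 and 32.7 and 31.5 CPM in ERAA. ERDD and ERPHF8 then overlapped, while the reads over SLC5A3 were 58.9 and 59.0 CPM in ERDD against 86.9 and 102.8 CPM in ERPHF8. MRPL41, MRPS18C and MRPL53 were lower in ERPHF8 than in ERAA by log2 changes of -0.27 ± 0.05, -0.23 ± 0.05 and -0.20 ± 0.06 (limma adjusted p of 0.0022, 0.0062 and 0.025). The call of MRPS18C was lost without ERPHF8 library 2, and that of MRPL53 without any 1 library other than ERAA library 1. FAM175A overlaps 74.0% of the span of MRPS18C, and CCDC142 97.9% of that of MRPL53. MRPL41 was also lower in ERPHF8 than in ERDD, with 68.1 and 68.0 CPM in ERDD, 49.6 and 50.7 CPM in ERPHF8 and 58.7 and 62.6 CPM in ERAA, so ERPHF8 was the lowest line. MRPL16, MRPS27 and MRPL30 were lower in ERDD than in ERPHF8 by -0.21 ± 0.05, -0.19 ± 0.04 and -0.21 ± 0.06 (limma adjusted p of 0.011, 0.0048 and 0.02), calls that were each lost without at least 1 library of those lines, as was that of MRPS31 (-0.32 ± 0.07, 0.0061).

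**Figure D5:**
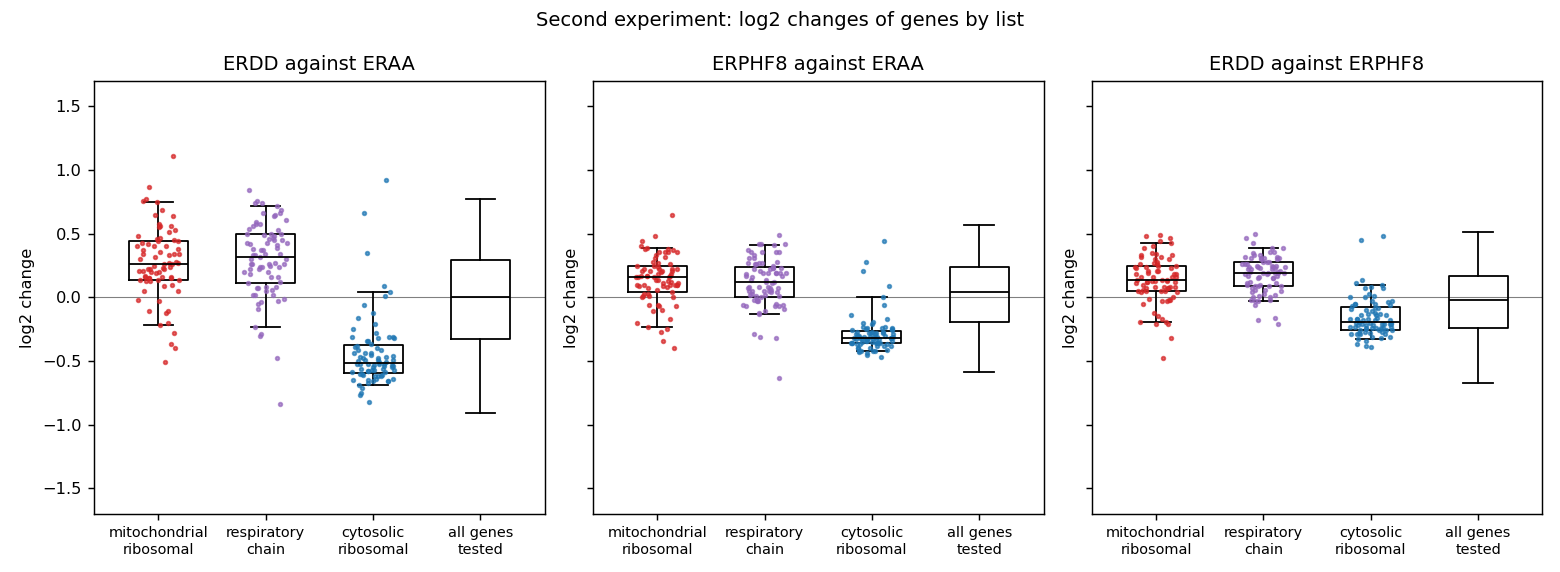
Log2 changes of the members, of respiratory chain subunits and of cytosolic ribosomal proteins in the 3 comparisons of the second experiment; points are genes, boxes span the quartiles with the median, whiskers run over the 5th to 95th percentile, and all genes tested are shown as a box only. The members' medians of 0.26, 0.16 and 0.14 lie above 0 and those of the cytosolic ribosomal proteins, -0.51, -0.32 and -0.19, below it.

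The rise was shared by both subunits. In ERDD against ERAA, 34 of 48 MRPL members were called higher and 5 lower, and 20 of 29 MRPS members higher and 2 lower. The MRPS names called higher include MRPS18A, MRPS30 and MRPS36, which are not counted with the small subunit in the classes that follow. Of the large subunit proteins with a bacterial counterpart 21 of 28 were higher and 4 lower (median 0.33), and of those gained in mitochondria 14 of 21 and 1 (0.19). In the small subunit 11 of 15 proteins with a counterpart were higher (0.26), and 6 of 11 of the others were higher and 2 lower (0.15). Among the 41 members that overlap no other gene, 30 were higher and 3 lower, with a median of 0.27.

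Other genes of mitochondrial translation were counted in the same comparisons, where 29% of all genes were called higher and 33.9% lower in libraries 1 and 2, and 34.8% higher and 33.3% lower in ERDD against ERAA. Of 6 further ribosome components without an MRP name (DAP3, PTCD3, CHCHD1, AURKAIP1, GADD45GIP1 and ICT1), 6 were called higher in libraries 1 and 2 than in 3 and 4, and in ERDD against ERAA 3 were higher and 1 lower. GADD45GIP1 averaged 90.3 CPM in ERDD and 56.9 CPM in ERAA, a log2 change of 0.66 ± 0.05 (limma adjusted p = 1.8e-05), while DAP3 averaged 133.8 CPM in ERDD and 146.0 CPM in ERAA, a log2 change of -0.12 ± 0.05 (0.043). Of 16 translation factors, 10 were higher in libraries 1 and 2, and 6 higher and 1 lower in ERDD against ERAA, with a median log2 change there of 0.02, near that of all genes. In ERDD against ERPHF8, 3 were higher and 3 lower. TUFM, the mitochondrial elongation factor that delivers aminoacyl-tRNA, averaged 312.6 CPM in ERDD and 175.3 CPM in ERAA (log2 change 0.84 ± 0.06, limma adjusted p = 1e-05). Of 20 mitochondrial aminoacyl-tRNA synthetases and related enzymes, 16 were higher in libraries 1 and 2, and 10 higher and 1 lower in ERDD.

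Of 26 assembly factors, 16 were called higher and 2 lower in libraries 1 and 2, and 15 higher and 4 lower in ERDD against ERAA. RMND1, which is needed for mitochondrial translation, went down in ERDD, at 29.6 CPM against 45.7 CPM in ERAA (log2 change -0.62 ± 0.05, limma adjusted p = 1.7e-05). Among 24 genes of mitochondrial DNA upkeep, transcription and RNA handling, 18 were higher and 1 lower in libraries 1 and 2, and 18 higher and 2 lower in ERDD. PNPT1, the mitochondrial polynucleotide phosphorylase, averaged 126.5 CPM in ERDD and 48.5 CPM in ERAA (1.38 ± 0.05, 3.5e-07). A lower change between pairs in PHF8 than in wt, called in 16.1% of all genes, was called in 7 of 16 translation factors, 10 of 26 assembly factors, 6 of 20 synthetases and 11 of 24 of the last list, and in 13 of 79 respiratory chain subunits, 3 of 11 known regulators of nuclear genes of mitochondria and 2 of 80 cytosolic ribosomal proteins.

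Cytosolic ribosomal proteins did not share the direction. Of 80 tested (83 listed), 72 were called lower and 3 higher in ERDD than in ERAA, with a median log2 change of -0.51, while of 79 respiratory chain subunits tested (87 listed) 57 were higher and 5 lower, with a median of 0.32. RPL4 averaged 1151.9 CPM in ERDD and 1888.9 CPM in ERAA (log2 change -0.71 ± 0.05, limma adjusted p = 1.3e-05), and RPL15 714.7 CPM in ERDD and 1266.7 CPM in ERAA (-0.82 ± 0.05, 4.4e-06). Between libraries 1 and 2 and libraries 3 and 4 the counts were 10 higher and 39 lower for cytosolic ribosomal proteins (median -0.11) and 48 higher and 2 lower for respiratory chain subunits (0.15). The ratio of the members' sum to that of the cytosolic ribosomal proteins was 8.13 and 8.16% in ERDD, 6.69 and 6.61% in ERPHF8 and 5.03 and 4.66% in ERAA. The ratio was 7.37 and 7.28% in PHF8 libraries 1 and 2, against 6.62 and 6.48% in libraries 3 and 4, 9.63 and 9.2% in F279S libraries 1 and 2, against 6.67 and 6.43% in libraries 3 and 4, and 8.72 and 8.76% in wt libraries 1 and 2, against 6.21 and 5.76% in libraries 3 and 4. CPM are shares of a library's reads, so a fall of these abundant messages and a rise of others cannot be told apart from the sums; with median-ratio scaling, which does not use the totals, 59, 36 and 40 members were called in ERDD against ERAA, ERPHF8 against ERAA and ERDD against ERPHF8, in place of 61, 42 and 40.

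Genes known to regulate nuclear genes of mitochondria gave mixed values. Of 12 listed, 5 were called higher and 1 lower in libraries 1 and 2 (11 tested), and 6 higher and 3 lower in ERDD against ERAA. PPRC1, a coactivator of the PGC family, was at 75.4, 75.7, 56.0 and 49.6 CPM in PHF8 libraries 1 to 4, at 93.8, 91.5, 52.4 and 47.6 CPM in F279S and at 92.0, 95.8, 52.0 and 47.6 CPM in wt. It was at 67.8 and 68.1 CPM in ERDD, 50.5 and 53.0 CPM in ERPHF8 and 41.9 and 37.0 CPM in ERAA, so it was higher in libraries 1 and 2 of each line and stepped down over the ER lines. MYC was higher in libraries 1 and 2 by a log2 change of 0.44 ± 0.03 (limma adjusted p = 3.9e-07). In the second experiment it ran against the members, at 219.9 and 228.1 CPM in ERDD, 287.4 and 279.7 CPM in ERPHF8 and 348.6 and 363.5 CPM in ERAA. GABPA and NRF1, which bind promoters of many nuclear genes of mitochondria, were higher in ERPHF8 than in ERAA by 0.39 ± 0.06 and 0.39 ± 0.07 (limma adjusted p of 0.001 and 0.0019). In ERDD against ERAA neither was among the 4 regulators of smallest p, which were MYC, PPRC1, YY1 and GABPB1.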

How the data were processed

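RNA of 18 THP-1 libraries was poly(A) selected and sequenced on an Illumina NextSeq 500, per the labels' protocols. Values were deposited by the authors as RPKM, 1 per gene and library. STAR 2.7.0c, SAMtools 1.9 and DESeq2 are listed in the submitters' processing notes with hg38, whereas no counting tool, strand setting or annotation release is named there (not given in the sources used here). RPKM times the gene span gave CPM, reads scaled to a common library total, and the steps of these values gave whole reads for 100% of values, within 0.01 reads, from which depth was taken. Genes that reached 1 CPM in 4 or more libraries (first experiment) or 2 or more (second) were tested with limma 3.58.1 in R 4.3.3 on log2(CPM + 0.5) with a trended variance, separately in each experiment. A list is described by its counts and its median beside those of all genes tested. The members and lists were chosen with earlier results of these data known.

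Named members were up to 6 called each way by size in each comparison, or the 4 of smallest p where fewer than 4 were called, up to 6 of smallest p for each difference of pairs, up to 4 of smallest p in each other list, and the 5 highest and 5 lowest levels per exonic kilobase (union of GENCODE v29 exons); MRPL33 in the difference of pairs against wt was named after its value was seen. The fit was tested on simulated data. No libraries were identical by chi-square per degree of freedom between libraries of a line. In the first experiment it ran from 1.92 to 11.18 within library pairs and from 25.34 to 71.15 across them. In the second it was 1.85 in ERDD, 3.18 in ERPHF8 and 14.75 in ERAA. Same-numbered libraries of different lines deviated together in the first experiment (correlations of 0.484 to 0.908 over 12 pairs), so the replicate block stands beside results there. Different-numbered libraries of the same library pair did so too. Their correlations ran from 0.235 (PHF8 library 4 with wt library 3) to 0.819 (F279S library 1 with wt library 2). Same-numbered libraries did not deviate together in the second experiment (-0.336 to 0.104 over 6 pairs). Alternatives covered the pseudocount, the filter, median-ratio scaling, limma-voom on recovered reads, the block, each library pair, each library left out and members without overlaps.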

Additional observations from a re-analysis of the deposited data

Results flagged for a closer look

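In 4 of 105 groups of 4 libraries checked, 1 library lay far from the others, by a gap over range above the 95% critical value of Dixon's test, where chance gives about 1 in 20. MRPL10 was at 37.5, 37.0, 33.2 and 37.0 CPM in wt libraries 1 to 4, with library 3 apart by a gap over range of 0.884. MRPL16 was at 51.4, 51.2, 43.9 and 50.7 CPM in wt, also with library 3 low (0.907). MRPL53 was at 33.8, 37.3, 33.7 and 33.1 CPM in the PHF8 line, with library 2 high (0.833), and MRPS31 at 23.6, 22.5, 22.3 and 22.4 CPM there, with library 1 high (0.846).

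The gap between libraries 1 and 2 and libraries 3 and 4 differed between lines by the interaction test in limma. PHF8 against wt differed by log2 values of -0.73 for MRPL3, -0.68 for MRPL15, -0.70 for MRPS12, -0.69 for MRPL1, -0.66 for MRPL21 and -0.50 for MRPL4. PHF8 against F279S differed by -0.51 for MRPS6, -0.60 for MRPL15, -0.66 for MRPS12, -0.52 for MRPL1, 0.47 for MRPL33 and -0.46 for MRPL3. Both sets of values share the PHF8 libraries.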

How the results depend on the processing

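Of the counts of called members under the alternatives, 151 stayed within 1.5 times the count reported and 30 did not. No named member changed direction under an alternative where it was called as reported or under that alternative. Changes of sign where it was called in neither were not counted. PHF8 against wt gave 5 calls as reported, 15 with the replicate block, 15 with the library pair as a factor, 39 in libraries 1 and 2 alone, 30 in libraries 3 and 4 alone and 1 with each pair averaged. Over all 13683 genes the calls were 2874 as reported and 5670, 5595, 7029, 5765 and 1775 under these settings. PHF8 against F279S gave 4 as reported, and 17, 19, 39 and 17 under the first 4 of these, with 5 when each pair was averaged (3 of them shared with the 4). All genes then gave 2750 calls as reported and 5620, 5565, 7366, 4821 and 1594 under these settings. F279S against wt gave 0 as reported, 1 with the replicate block, 6 in libraries 1 and 2 alone, and 0 with the pair as a factor or each pair averaged. All genes gave 2 calls as reported, 298 with the block and 1943 in libraries 1 and 2 alone. They gave 298 with the pair as a factor and 1 with each pair averaged. The cause of these shifts was not tested. Counts for a library pair alone are from separate fits of that pair. They differ from the counts within pairs given earlier, which used a fit of all libraries of the first experiment. The block in the second experiment gave 58, 42 and 37 calls for ERDD against ERAA, ERPHF8 against ERAA and ERDD against ERPHF8, and crossed numbers, chosen after seeing the data, gave 47 for ERPHF8 against ERAA. The replicate block changed no other count by over 1.5 times. Among the 41 members that overlap no other gene there were 3 calls in PHF8 against wt, 2 in PHF8 against F279S, 33 in ERDD against ERAA, 22 in ERPHF8 against ERAA, 20 in ERDD against ERPHF8, 36 between library pairs, and 19 and 15 for the difference of pairs against wt and F279S, fewer because fewer members were counted.

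Leaving out 1 library gave 4 to 6 calls in PHF8 against wt, 3 to 6 in PHF8 against F279S, 0 in F279S against wt and in its difference of pairs, 47 to 72 in ERDD against ERAA, 26 to 57 in ERPHF8 against ERAA, 15 to 56 in ERDD against ERPHF8 and 59 to 65 between library pairs. The difference of pairs in PHF8 gave 28 to 46 against wt and 9 to 32 against F279S. With 2 libraries a line in the second experiment, a line left with 1 library is assumed to vary like the others. Over the named members, 41 calls were lost and 2 gained under an alternative, with the direction kept. Depth did not limit single members, each with at least 236 reads in a library.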
